A study of Mus musculus with 7 samples.

Results

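The genes described here are the mouse zinc finger genes whose symbol is Zfp followed by digits only, among them Zfp101. They were chosen by their raw read counts, as the genes of that form whose counts summed over the 7 tumors reached at least 2000. Of the 34592 genes counted, 344 had such a symbol and 263 passed. The 81 others were left out, of which 61 were abundant enough to be tested and 5 had no read in any tumor. The summed counts of the 263 genes ran from 2002 to 112581, with a median of 7785. Just inside the limit were Zfp786 with 2002 reads, Zfp458 with 2026 and Zfp503 with 2048, and just outside were Zfp273 with 1993, Zfp607 with 1947 and Zfp108 with 1946. Because the tumors labelled WDR11OE held 69.1% of all reads, the sum leans towards genes that are abundant in them. With every tumor given equal weight, 259 genes passed, all of them among the 263.

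RNA was sequenced from 7 mouse G3 MBs (Group 3 medulloblastomas, malignant tumors of the cerebellum driven by Myc). All 7 grew from one tumorsphere line, # 19568, made from Trp53-/-; Cdkn2c-/- cerebellar granule neuron progenitors. The study's methods for RNA sequencing do not name the line. This line carries an MSCV retrovirus with Myc and a fluorescent reporter, given as GFP in the study's methods and as RFP in a figure legend. Its cells were infected in culture with a pCDH lentivirus, in which the EF1 promoter drives copGFP with or without human WDR11, and were placed in the cortex of CD1-nu/nu mice, which lack T cells. Tumor chunks were frozen when the mice became moribund. The labels give 4 tumors as WDR11 overexpression (labelled WDR11OE) and 3 as controls with no treatment, which the study's methods describe as carrying the empty vector. One line stands for the whole model, the infected cells were not described as sorted, and a chunk can hold cells of the host. The progenitors came from early postnatal pups, and the study's methods describe the host mice as young adults.

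The targeted gene was looked at first. The count table has a row for human WDR11, which the controls held at 2.03 CPM, 2.19 CPM and 3.13 CPM (CPM, read counts scaled to the library size with TMM factors). In the tumors labelled WDR11OE it lay at 4.38 CPM, 2.11 CPM, 3.05 CPM and 0.624 CPM in replicates 1 to 4. The groups overlapped, and the log2 fold change was 0.05 ± 0.58 (SE; adjusted p = 0.961, edgeR's quasi-likelihood F test, Benjamini-Hochberg adjusted over all genes tested). The row held 73 to 102 reads in the controls and 57 to 185 in the tumors labelled WDR11OE. Whether it counts reads of the lentiviral cDNA is not known, and it does not bear out the labels. The study itself reports raised WDR11 transcript in tumors by qRT-PCR and WDR11 protein by immunofluorescence in tumorspheres from secondary tumors. Every direction below is between tumors as labelled. Mouse Wdr11 had a log2 fold change of 0.16 ± 0.06 (SE; adjusted p = 0.0910, same edgeR test). It lay at 58.3 CPM to 59.3 CPM in the controls. In the tumors labelled WDR11OE it lay at 61.0 CPM to 68.9 CPM, without overlap. The Myc of the model was present in all 7 tumors, at 812 CPM to 1109 CPM in the controls and 278 CPM to 431 CPM in the tumors labelled WDR11OE.

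Total counts lay between 32116095 and 87141305 per tumor, and the 263 Zfp genes took between 0.916% and 1.02% of them. Every one of the 263 had at least 101 reads in each tumor. Each group has its own run of library numbers, and a difference between those runs and one between the conditions cannot be told apart. The titles of the tumors numbered here WDR11OE replicates 1 and 2 share a number, and those libraries were the most alike pair (Pearson r = 0.993 across genes, against 0.887 to 0.980 for the other pairs within a group), so counts of calls are also given with both summed into one tumor. The labels do not say that every tumor came from a separate mouse, and the p-values measure the spread between these samples, which may in part be technical. Markers of skeletal muscle (5 of 5 tested genes higher, summed 1.04 CPM to 1.75 CPM in controls and 31.6 CPM to 97.1 CPM in the tumors labelled WDR11OE) moved with the groups, and their part in the results was not tested. Of the other lists, 0 of 6 neuron markers, 0 of 4 oligodendrocyte markers and 0 of 4 microglia markers passed in edgeR's test, with summed neuron markers at 42.0 CPM to 262 CPM in the controls and 9.52 CPM to 564 CPM in the tumors labelled WDR11OE, while 1 of 4 astrocyte markers was higher and 1 of 4 endothelium markers was lower. Of the 7 granule lineage and model markers, Myc was lower, and Atoh1, which defines granule neuron progenitors, was at 0 in all 7 tumors. In bulk tissue, fewer cells of a type and less RNA per cell cannot be told apart.

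Zfp genes mostly encode C2H2 zinc finger proteins, in which pairs of cysteines and histidines hold a zinc ion and fold a short loop that reads DNA. Many of them also carry a KRAB domain near the start of the protein, which recruits the corepressor Trim28 and, through it, enzymes that write repressive chromatin over transposable elements. KRAB zinc finger genes are young, multiply by tandem duplication and stand in clusters, whereas zinc finger genes without the domain include old regulators of brain development.

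The coding sequences of the GENCODE models for NCBIM37 (mm9) sorted the genes into classes. Of the 258 genes matched to them, 101 had both C2H2 fingers and the core of the KRAB A box, 152 had C2H2 fingers without it, and 5 had no standard finger. The other 5 genes (Zfp131, Zfp319, Zfp664, Zfp708 and Zfp738) could not be matched and have no class. A KRAB gene encoded a median of 12 fingers (range 6 to 33), and a gene without the KRAB pattern a median of 8 (range 1 to 36). The KRAB pattern is shown for Zfp951 and Zfp759, which had large differences, all in capitals since every codon belongs to it. These stretches stand at chr5:105246041-105246064 (minus strand) and chr13:67237732-67237755 (plus strand), both in coding exons.
Zfp951: CTCTACAAGGATGTGATGCTGGAG
Zfp759: TTGTACAGGGATGTGATGCTGGAG

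The first finger of Zfp101, of these genes and of the 2 genes with the lowest fold changes is printed to show its base composition. The codons of the zinc-binding cysteines and histidines are in capitals. The fingers stand at chr17:33519003-33519065 (minus strand), chr5:105244124-105244186 (minus strand), chr13:67239812-67239874 (plus strand), chr7:38354553-38354615 (minus strand) and chr8:90307110-90307172 (minus strand).
Zfp101: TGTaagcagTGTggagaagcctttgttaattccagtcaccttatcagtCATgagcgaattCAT
Zfp951: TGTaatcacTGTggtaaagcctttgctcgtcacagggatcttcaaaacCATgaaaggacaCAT
Zfp759: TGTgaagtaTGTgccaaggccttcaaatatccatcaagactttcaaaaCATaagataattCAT
Zfp536: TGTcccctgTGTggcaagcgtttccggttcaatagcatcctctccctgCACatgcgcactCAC
Zfp423: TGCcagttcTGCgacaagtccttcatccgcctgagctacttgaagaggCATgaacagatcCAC

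Over all of its fingers, Zfp101 had a GC content of 38.4%, Zfp951 of 38.4% and Zfp759 of 38.2%, against 56.6% for Zfp536 and 57.5% for Zfp423. The median GC content of the fingers was 42.2% in the 101 KRAB genes and 51.2% in the 131 genes without the KRAB pattern for which it was computed.

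Levels were compared between genes per kilobase of exon, as the mean of the 3 controls. They ran from 0.887 CPM per kilobase for Zfp712 to 48.6 CPM per kilobase for Zfp266, with a median of 5.46 over the 258 matched genes. The median level was 4.21 CPM per kilobase for the KRAB genes and 6.88 CPM per kilobase for those without the pattern. Zfp266, a KRAB gene, had the highest level of all, and its difference between the groups did not pass the test (log2 fold change 0.10 ± 0.09 SE, adjusted p = 0.465 from edgeR's test). By reads rather than reads per length, the most abundant genes were Zfp266, Zfp207, Zfp106, Zfp292 and Zfp451.

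Between the tumors labelled WDR11OE and the controls, more Zfp genes were higher than lower. Of the 263 genes, all of which were tested, 112 (42.6%) were higher and 52 (19.8%) were lower at an adjusted p under 0.05 in edgeR's quasi-likelihood test, and 99 did not pass. The background was 18.1% higher and 15.8% lower over all 17389 genes tested, and 22.4% higher and 21% lower over the 11401 tested genes with a summed count of at least 2000. With a change of at least 2-fold also required, 13 genes were higher (4.94%) and 7 were lower (2.66%), against a background of 2.36% higher and 3.45% lower over all genes tested, and of 1.85% and 3.76% over those with the same minimum of reads. Every tumor of one group lay above every tumor of the other for 132 genes that were higher and 64 that were lower, against 23.5% and 19.1% of all genes tested and 26.7% and 24.6% of those with the same minimum of reads. The median log2 fold change of the Zfp genes was 0.21, beside 0.08 for all genes tested and 0.03 for those with a summed count of at least 2000. With WDR11OE replicate 1 left out, 74 Zfp genes were higher, against 9.12% of all genes tested. With replicates 1 and 2 summed, 75 were higher and 42 lower, against 9.51% and 12.2% of all genes tested. The balance turned when a trend on GC content was removed in that summed fit (27 higher, 37 lower), which called 6.3% of all genes higher and 10.9% lower. It was 57 higher and 48 lower when the trend alone was removed, as described further on.

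**Figure D1:**
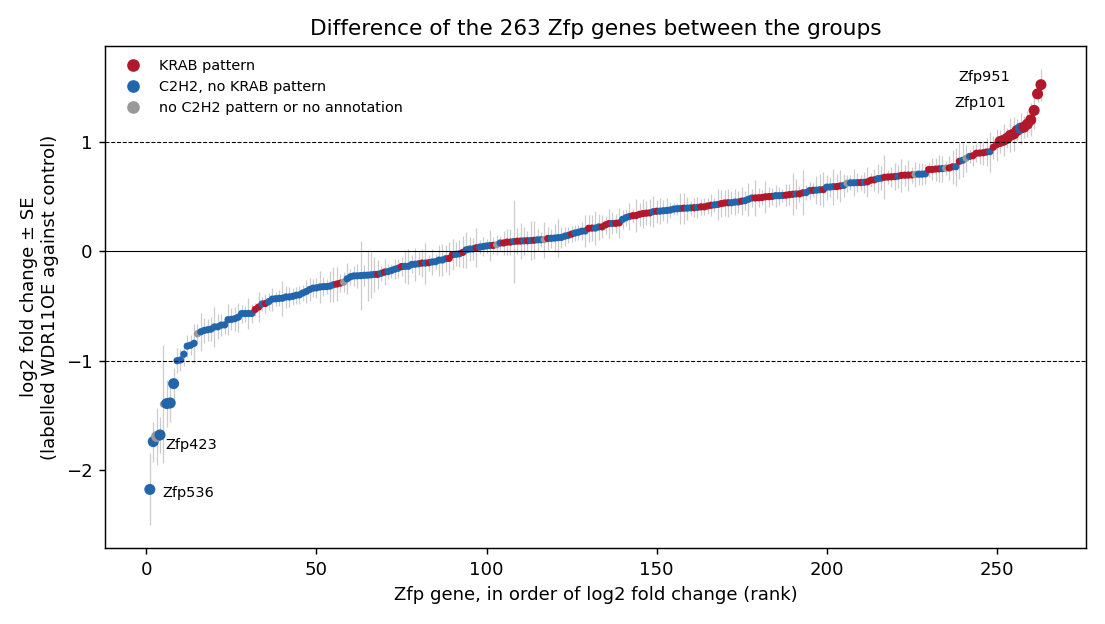
Log2 fold change between the tumors labelled WDR11OE and the controls for the 263 Zfp genes in rank order, with bars of ± SE, coloured by class, and larger points for the 20 genes past the 2-fold call. KRAB genes (red) lead the upper end, with Zfp951 at 1.52 and Zfp101 at 1.44, and genes without the KRAB pattern (blue) lead the lower end, with Zfp536 at −2.17 and Zfp423 at −1.74.

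The calls were unevenly divided between the classes. Of the 101 KRAB genes, 63 were higher and 4 were lower (Zfp316, Zfp334, Zfp46 and Zfp689), with a median log2 fold change of 0.49. Of the 152 C2H2 genes without the KRAB pattern, 45 were higher and 46 were lower, with a median of −0.0044. The shares higher and lower were 62.4% and 3.96% of the KRAB genes and 29.6% and 30.3% of those without the pattern. Over tested genes with a summed count of at least 2000, they were 22.4% and 21%. At 2-fold, 12 KRAB genes were higher (11.9%) and 0 were lower. Of the genes without the pattern, 1 was higher (0.658%) and 6 were lower (3.95%). Over tested genes with that minimum of reads, 1.85% were higher and 3.76% lower at 2-fold. The remaining 2-fold call, Zfp503, had no standard finger. With a wider KRAB pattern, chosen after seeing the data, the class grew to 131 genes, of which 78 were higher and 5 were lower, and the rest to 122 genes, of which 30 were higher and 45 were lower. With WDR11OE replicates 1 and 2 summed, 42 of the 101 KRAB genes were higher and 2 were lower. That fit called 9.51% of all genes tested higher and 12.2% lower.

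Tumor by tumor, the summed level of the 101 KRAB genes was 2237 CPM, 2165 CPM and 2237 CPM in the controls. It was 2914 CPM, 2855 CPM, 2956 CPM and 2865 CPM in WDR11OE replicates 1 to 4. The groups did not overlap, and the tumors within a group lay close together. The 152 genes without the pattern summed to 6723 CPM, 6586 CPM and 6807 CPM in the controls and to 6615 CPM, 6494 CPM, 6654 CPM and 6520 CPM in the tumors labelled WDR11OE, and these ranges overlapped. The ratio of the KRAB sum to the other was 0.330 ± 0.0024 (SD, n = 3) in the controls and 0.441 ± 0.0022 (SD, n = 4) in the tumors labelled WDR11OE.

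Base composition moved with the groups across the whole transcriptome. In genes other than these, the mean log2 CPM of 4024 genes with an exon GC content under 45%, minus that of 3877 genes of 55% or more, was 0.36, 0.30 and 0.34 in the controls. In the tumors labelled WDR11OE it was 0.92, 0.82, 0.88 and 0.94. Low-GC genes were thus relatively more abundant in every tumor labelled WDR11OE than in any control, and the KRAB genes are low in GC, with a median exon GC content of 42.7%, against 49.2% for the Zfp genes without the pattern.

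**Figure D2:**
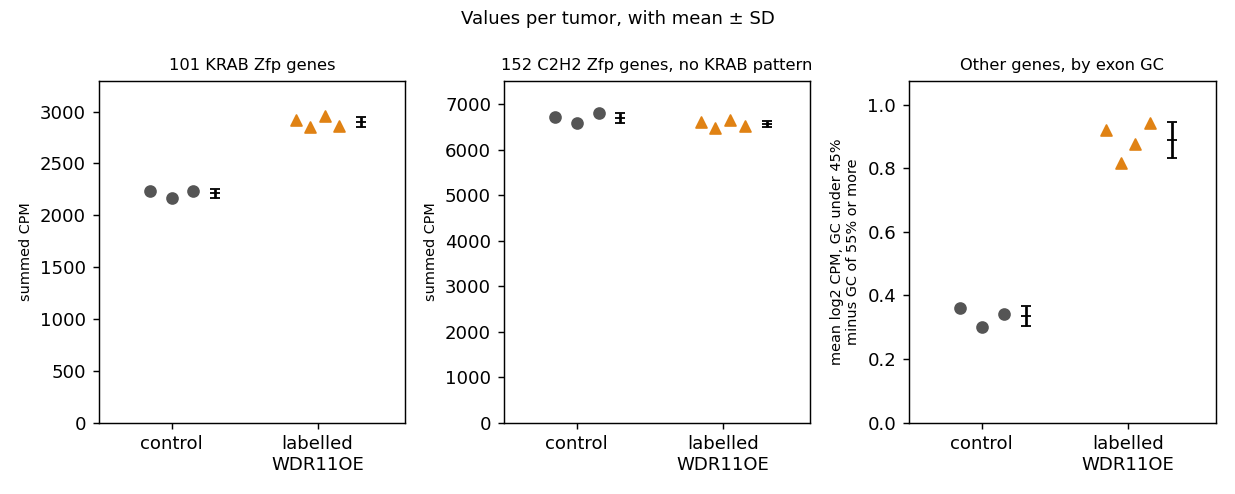
Summed CPM of the 101 KRAB genes (left), summed CPM of the 152 C2H2 genes without the KRAB pattern (middle), and the difference in mean log2 CPM between low-GC and high-GC genes outside the Zfp genes (right), one point per tumor with the mean ± SD beside them. The 3 controls and the 4 tumors labelled WDR11OE separate in the left and right panels and overlap in the middle one.

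Across the 258 Zfp genes with an exon GC content, Spearman's rho between it and the log2 fold change was −0.72, a description over genes that share the same 7 libraries. It was −0.74 over the KRAB genes, −0.61 over those without the pattern and −0.34 over 17125 genes tested. Below 40% GC, 37 of 44 Zfp genes were higher and 0 were lower, with a median log2 fold change of 0.70. At 55% or more, 1 of 43 was higher and 23 were lower, with a median of −0.34. Between 45% and 50%, 12 of 47 were higher and 11 were lower. The KRAB genes were also set beside other genes of like GC content and a like minimum of reads. Below 40%, 31 of 33 KRAB genes (93.9%) were higher, with a median log2 fold change of 0.76, against 59.3% of 545 other genes with a summed count of at least 2000, whose median was 0.48. Between 40% and 45%, 27 of 37 KRAB genes (73.0%) were higher, with a median of 0.44, against 41.6% of 2216 other genes, whose median was 0.30. Zfp genes without the pattern gave 26 of 39 (66.7%) in that band, with a median of 0.43. Below 40% they gave 6 of 11 (54.5%), with a median of 0.39. Some of these genes, such as Zfp160, Zfp229 and Zfp934 below 40%, matched the wider KRAB pattern. From 45% to 50%, 1 of 15 KRAB genes (6.67%) was higher, against 23.6% of 2964 other genes, and from 50% to 55%, 4 of 13 (30.8%), against 12.3% of 2870.

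A loess trend on exon GC content was then removed within each tumor. The 5 genes without a match have no exon GC content and received the mean of the trend, so they were hardly corrected. Of these 5, 3 were higher and 1 was lower both before and after, and they are included in the counts over the 263 genes. Of the 263 Zfp genes, 57 remained higher or became so and 48 lower, with a median log2 fold change of 0.10, against a background of 11.1% higher and 14.3% lower over all genes tested, and of 13% and 19.3% over those with a summed count of at least 2000. Of the 112 genes higher before, 54 stayed higher, and of the 52 lower before, 39 stayed lower. No gene passed in opposite directions. Of the KRAB genes, 28 of 101 were higher and 5 lower, with a median of 0.22, and of the genes without the pattern, 25 of 152 were higher and 41 lower, with a median of 0.01. At 2-fold, 3 genes were higher and 7 were lower, against 1.87% and 2.78% of all genes tested and 1.44% and 2.98% of those with that minimum. The relation with GC content was reduced to a rho of −0.29 over the 258 genes and to 0.02 over all genes tested. The number of 2-fold calls thus went from 13 to 3 among the higher genes (Zfp951, Zfp101 and Zfp764 stayed) and was 7 before and after among the lower ones, where Zfp462 took the place of Zfp628.

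**Figure D3:**
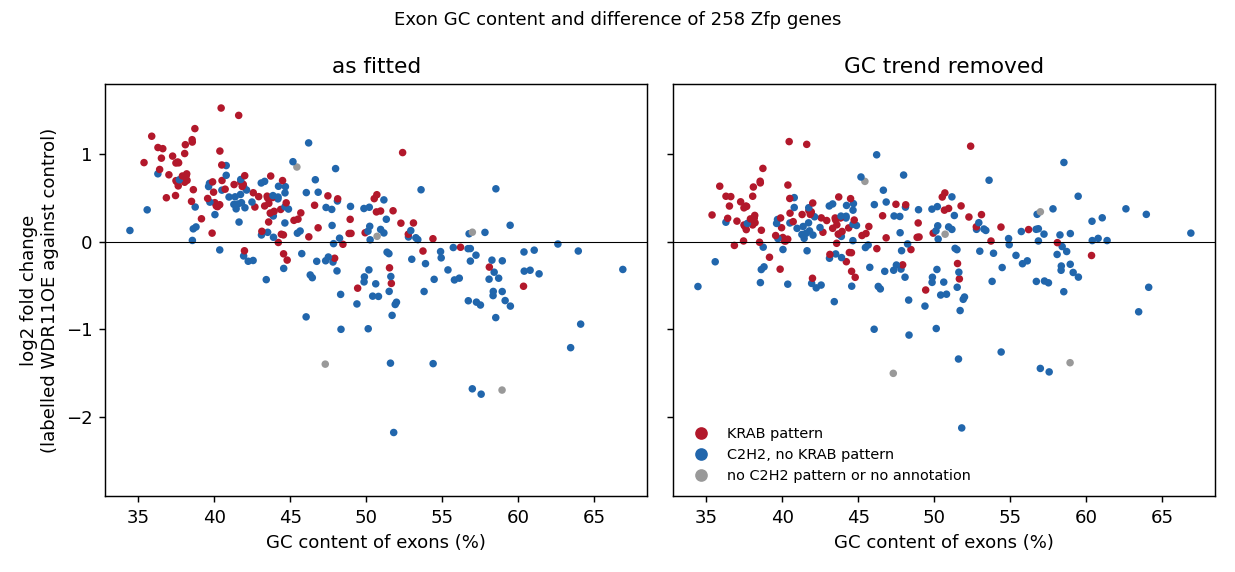
Log2 fold change against exon GC content (%) for the 258 matched Zfp genes, as fitted (left) and after a loess trend on GC content was removed within each tumor (right), coloured by class. The slope on the left, with a Spearman rho of −0.72, flattens on the right to −0.29, while the lowest genes stay below −1.

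The 13 genes past the 2-fold call in the higher direction had controls and tumors labelled WDR11OE that did not overlap. Zfp101, a KRAB gene with 12 fingers on the minus strand at chr17:33497452-33531586, was measured in control replicates 1 to 3 at 20.7 CPM, 20.2 CPM and 18.8 CPM. In WDR11OE replicates 1 to 4 it lay at 54.3 CPM, 49.4 CPM, 57.4 CPM and 54.7 CPM. Its lowest tumor labelled WDR11OE was thus well over the highest control, and its log2 fold change was 1.44 ± 0.08 (SE), or 1.11 with the GC trend removed. Zfp101 was known for this difference when the genes were chosen, so it is described without a test, although the counts of calls include it.

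Zfp951, a KRAB gene with 10 fingers at chr5:105242366-105246371, had the highest log2 fold change of the 263, 1.52 ± 0.15 (SE; adjusted p = 0.00105, edgeR's test). It lay at 3.81 CPM, 3.79 CPM and 3.34 CPM in the controls and at 9.43 CPM, 11.0 CPM, 10.01 CPM and 11.5 CPM in the tumors labelled WDR11OE. Zfp759 lay at 3.75 CPM, 3.12 CPM and 3.37 CPM in the controls and at 9.35 CPM, 8.46 CPM, 6.84 CPM and 8.70 CPM in the tumors labelled WDR11OE. Both genes were low in all tumors, and both stayed past the test with the GC trend removed, at log2 fold changes of 1.14 and 0.83. Zfp945 lay at 18.3 CPM to 27.6 CPM in the controls and 46.0 CPM to 55.6 CPM in the tumors labelled WDR11OE, with control replicate 1 the highest of its group. Zfp51, Zfp930, Zfp944, Zfp808 and Zfp938 had log2 fold changes between 1.06 and 1.16, and are KRAB genes too. Zfp184, at 1.12, has 18 fingers and matched the wider KRAB pattern only. Zfp386, Zfp764 and Zfp120 made up the rest, at 1.03, 1.01 and 1.004.

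With the GC trend removed, the log2 fold changes of the 13 genes ran from 0.51 to 1.14, and 12 of them passed. Zfp808 did not (adjusted p = 0.0541, edgeR's test). Zfp764 stood apart from the others in base composition, at 52.4% exon GC, and had a log2 fold change of 1.09 after the removal. Antisense exons covered at most 2.26% of the exons of any of the 13. KRAB genes within a cluster are similar in sequence, so reads shared between them are uncertain.

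**Figure D4:**
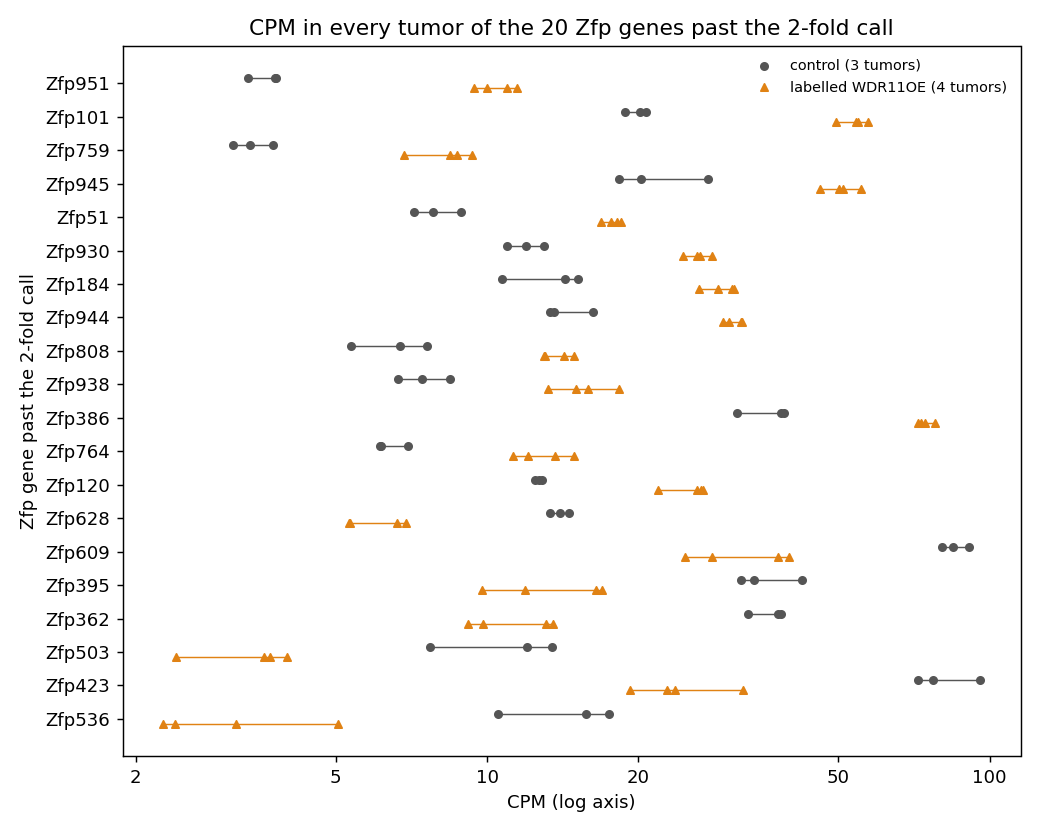
CPM on a log axis in each of the 3 controls (grey circles) and the 4 tumors labelled WDR11OE (orange triangles) for the 20 Zfp genes past the 2-fold call, ordered by log2 fold change, with lines over each group's range. The groups overlap for none of the 20 genes.

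The 7 genes past the 2-fold call in the lower direction were Zfp536, Zfp423, Zfp503, Zfp362, Zfp395, Zfp609 and Zfp628. Zfp536, a repressor of neuronal differentiation at chr7:38103693-38554771, had the lowest log2 fold change, −2.17 ± 0.33 (SE; adjusted p = 0.00294, edgeR's test). The controls were at 10.5 CPM, 15.7 CPM and 17.5 CPM, and WDR11OE replicates 1 to 4 at 2.39 CPM, 2.27 CPM, 3.17 CPM and 5.05 CPM. Even the highest of the latter, replicate 4, was below every control. Zfp423, which the development of the cerebellum needs, lies at chr8:90185709-90483494. It was at 95.5 CPM, 77.1 CPM and 72.1 CPM in the controls and at 23.6 CPM, 22.8 CPM, 32.3 CPM and 19.3 CPM in the tumors labelled WDR11OE, a log2 fold change of −1.74 ± 0.18 (SE; adjusted p = 0.00108, edgeR's test). Zfp503, a regulator of striatal development, lay at 7.70 CPM, 13.5 CPM and 12.01 CPM in the controls and at 3.69 CPM, 4.005 CPM, 3.60 CPM and 2.41 CPM in the tumors labelled WDR11OE.

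Zfp362 and Zfp395 had log2 fold changes of −1.68 and −1.39. Zfp609, a regulator of neural progenitors that works with the cohesin loader Nipbl, lay at 80.2 CPM to 90.8 CPM in the controls and 24.7 CPM to 39.8 CPM in the tumors labelled WDR11OE. Its log2 fold change was −1.38 ± 0.17 (SE; adjusted p = 0.00153, edgeR's test). Zfp628 had one of −1.21. All 7 passed with the GC trend removed, at log2 fold changes from −2.12 to −0.80. Their exon GC content ran from 51.6% to 63.5%, and no antisense exon overlapped theirs.

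Regulators of neural development formed a list of 13 among these genes, of which 2 were higher and 7 were lower, with a median log2 fold change of −0.46. The shares were 18.1% and 15.8% over all genes tested, and 22.4% and 21% over those with a summed count of at least 2000. Beside Zfp536, Zfp423 and Zfp503, the lower ones were Zfp462, a chromatin factor linked to neurodevelopmental disorders, Zfp335, which neurogenesis needs, Zfp521, a close relative of Zfp423, and Zfp219. Zfp462 lay at 121 CPM, 133 CPM and 134 CPM in the controls and at 56.8 CPM, 56.8 CPM, 72.5 CPM and 72.8 CPM in the tumors labelled WDR11OE. It fell by 0.999 on the log2 scale and Zfp335 by 0.67, and Zfp521 fell by 0.46. Zfp219, at −0.37, was at 0.01 with the GC trend removed and did not pass then (adjusted p = 0.937, edgeR's test). Zfp365 had a log2 fold change of −1.40 that did not pass (adjusted p = 0.0845, edgeR's test), with control replicate 1 at 35.1 CPM and the other controls at 11.1 CPM and 10.7 CPM. The higher ones were Zfp292, at 0.59, and Zfp191, which myelination needs, at 0.42. Zfp238, Zfp711 and Zfp148 did not pass, at −0.21, 0.01 and −0.09. With the GC trend removed, 7 of the 13 were lower and 0 were higher, and Zfp148, at −0.48 (adjusted p = 0.00352, edgeR's test), took the place of Zfp219 among the lower ones. In that fit, 19.3% of tested genes with a summed count of at least 2000 were lower and 13% were higher. Neuron markers varied widely within the groups, and their part in the values of this list was not tested. Their summed level was 262 CPM, 104 CPM and 42.0 CPM in the controls and 9.52 CPM, 20.8 CPM, 172 CPM and 564 CPM in WDR11OE replicates 1 to 4. The groups overlapped, and replicates 1 and 2 lay below every control.

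Of the 9 genes listed for pluripotency, imprints and retroelements, 4 were higher and 0 were lower, with a median log2 fold change of 0.37. The shares were 18.1% and 15.8% over all genes tested, and 22.4% and 21% over those with a summed count of at least 2000. Zfp445, which guards imprinted methylation, lay at 77.1 CPM to 82.0 CPM in the controls and 97.4 CPM to 111 CPM in the tumors labelled WDR11OE, and rose by 0.40. Its partner in that role, Zfp57, lay at 0.37 and did not pass (adjusted p = 0.0525, edgeR's test). Zfp932 and Zfp708, which silence endogenous retroviruses, were higher at 0.76 and 0.70. Zfp143, an activator that binds many promoters, was higher at 0.37. Zfp809, which silences murine leukemia proviruses, lay between 6.95 CPM and 9.23 CPM in the controls and between 7.50 CPM and 8.21 CPM in the tumors labelled WDR11OE, and the groups overlapped. Zfp961, Zfp568 and Zfp281, at 0.24, −0.19 and 0.08, did not pass either. After removal of the GC trend, 3 of the 9 were higher and 0 were lower, with a median of 0.18. In that fit, 13% of tested genes with a summed count of at least 2000 were higher and 19.3% were lower. Among the 3 was Zfp708, which has no exon GC content, so its value was hardly corrected, at 0.68. Zfp143 no longer passed then, at 0.18 (adjusted p = 0.256, edgeR's test), and Zfp932 was at 0.23 and Zfp445 at 0.20.

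Another list held 9 genes that act on RNA, ribosomes or the spindle, of which 1 was higher and 3 were lower. Their median log2 fold change was 0.06. The shares were 18.1% and 15.8% over all genes tested, and 22.4% and 21% over those with a summed count of at least 2000. Zfp207, a spindle assembly factor that binds the checkpoint protein Bub3, lay at 243 CPM, 203 CPM and 240 CPM in the controls. In the tumors labelled WDR11OE it lay at 349 CPM, 340 CPM, 354 CPM and 369 CPM, a log2 fold change of 0.63 ± 0.09 (SE; adjusted p = 0.00212, edgeR's test). Zfp346, which binds double-stranded RNA, had a log2 fold change of −0.69, and Zfp598, a ubiquitin ligase for collided ribosomes, one of −0.57. Zfp106, an RNA-binding protein that motor neurons need, lay at −0.41. Zfp326, an RNA processing factor, did not pass at 0.17 and was lower, at −0.29, with the GC trend removed (adjusted p = 0.0121, edgeR's test). Zfp622, Zfp259, Zfp830 and Zfp451 did not pass, at 0.10, 0.06, 0.32 and −0.16. After removal of the GC trend, 0 of the 9 were higher and 4 were lower, with a median of −0.26. In that fit, 13% of tested genes with a summed count of at least 2000 were higher and 19.3% were lower. Zfp207, at 0.21 (adjusted p = 0.124, edgeR's test), and Zfp598, at −0.26 (adjusted p = 0.0535, edgeR's test), no longer passed, and Zfp451 was lower, at −0.48 (adjusted p = 0.0119, edgeR's test). Zfp202, Zfp711 and Zfp809 had the largest adjusted p of the 263 genes, between 0.913 and 0.970 in edgeR's test.

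Of the 258 genes with a position, 121 fell into 16 clusters of at least 4 whose starts lay no more than 1 Mb apart. The median log2 fold change was above 0 in 13 of the clusters, and 12 had no lower gene. The largest, on chromosome 17 at chr17:21145905-23736454, held 17 genes, of which 14 were higher and 0 were lower, with a median of 0.70. Among them were Zfp51, Zfp944 and Zfp945. On chromosome 13, all 7 genes of the cluster at chr13:67139530-67654065 were higher, with a median of 0.68. These clusters had median exon GC contents of 38.1% and 38.7%. Over all genes tested, 18.1% were higher and 15.8% were lower, and over those with a summed count of at least 2000, 22.4% and 21%. Of other genes below 40% GC with a summed count of at least 2000, 59.3% were higher and 1.65% were lower, with a median of 0.48. With the GC trend removed, 6 of the 17 genes and 1 of the 7 were higher, and the medians were 0.27 and 0.24. In that fit, 13% of tested genes with the same minimum of reads were higher.

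Zfp101 stood at one end of a separate cluster on chromosome 17, at chr17:32908181-33531586. Of its 9 genes, 7 were higher and 0 were lower. The median exon GC content of the cluster was 42.0%. Of other genes from 40% to 45% GC with a summed count of at least 2000, 41.6% were higher and 6.59% were lower. Next to the 1.44 of Zfp101, Zfp472 lay at 0.87, Zfp81 at 0.53, Zfp952 at 0.52, Zfp563 at 0.50, Zfp799 at 0.49 and Zfp763 at 0.42. Zfp870, at 0.33, and Zfp871, at −0.10, did not pass. The difference of Zfp101 was the largest of its cluster. It was known before this cluster was singled out for holding Zfp101, so its rank and its place among the 7 are description only. Once the GC trend was removed, 3 of the 9 genes were higher and Zfp871 was lower, beside 13% and 19.3% of tested genes with that minimum.

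A cluster on chromosome 7, at chr7:134376575-135029510, ran the other way. Of its 9 genes, 5 were lower and 1 was higher, with a median of −0.43 and a median exon GC content of 57.3%. Of other genes at 55% GC or more with a summed count of at least 2000, 35.6% were lower and 4.70% were higher. The higher gene was Zfp764, and Zfp689, a KRAB gene, was among the lower ones, with antisense exons over 25.2% of its exons. After removal of the GC trend, 1 gene was higher and 2 were lower, beside 13% and 19.3% of tested genes with that minimum.

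**Figure D5:**
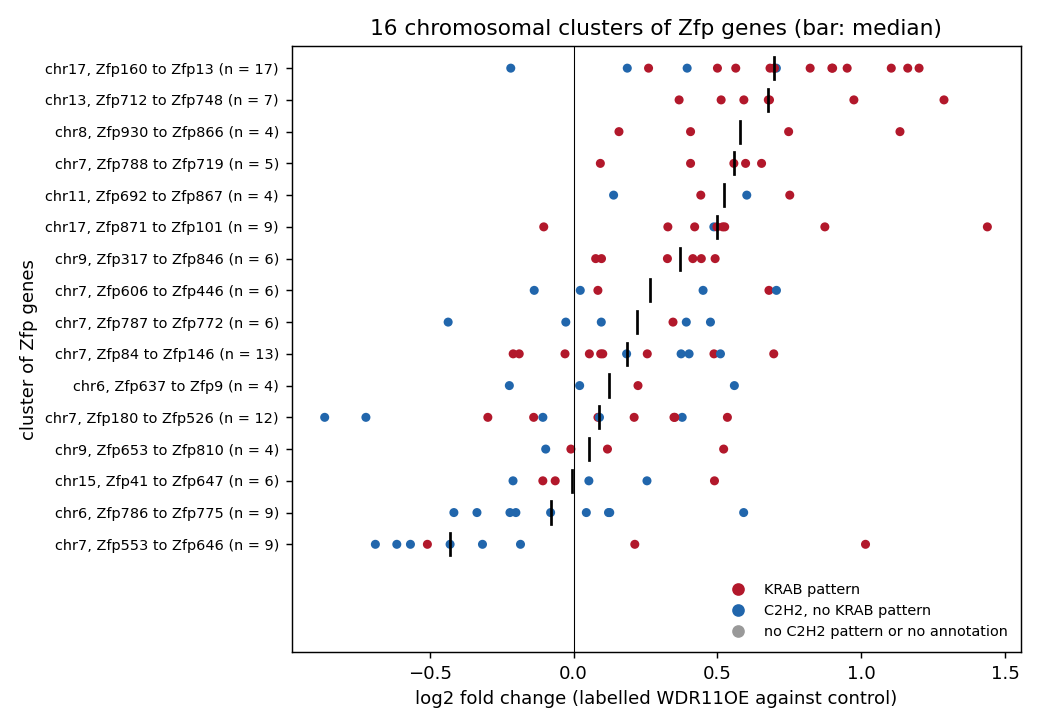
Log2 fold change of each of the 121 Zfp genes in the 16 chromosomal clusters, one row per cluster, named by its chromosome and its first and last gene, with a bar at the median. The cluster from Zfp160 to Zfp13 on chromosome 17 (median 0.70) and that from Zfp712 to Zfp748 on chromosome 13 (median 0.68) lie at the top, and that from Zfp553 to Zfp646 on chromosome 7 (median −0.43) at the bottom.

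The promoters of the Zfp genes were searched for 8 motifs on both strands, in windows from 250 bases before to 50 bases after the start, taken from RefSeq on GRCm38.p6. Of the 263 genes, 207 had a promoter there. The binding sequence of Zfp143, ACTACA, any 2 bases and TCC, was in 26.4% of the 87 KRAB promoters (23 genes), in 12.6% of the 111 promoters of genes without the pattern and in 3.09% of 16363 promoters of all genes tested. The site is shown with 9 bases on either side for 4 genes of the chromosome 13 cluster, with the motif in capitals, since these neighbours share it. The windows stand at chr13:67128168-67128196 (minus strand), chr13:67061206-67061234 (plus strand), chr13:67269152-67269180 (plus strand) and chr13:67553158-67553186 (plus strand) of GRCm38.p6.
Zfp759: ggggccgggACTACATTTCCcacaaatca
Zfp712: gcggacgagACTACATTTCCcacaattct
Zfp458: attgttgggACTACATTTCCcacaagtca
Zfp748: caacggaagACTACACTTCCcacaagtct

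Among the KRAB genes, the median log2 fold change was 0.40 with the motif and 0.52 without it. The order was reversed among the genes without the pattern, at 0.39 with the motif (14 genes) and −0.02 without it. Over all 207 Zfp genes with a promoter, the medians were 0.40 with it and 0.20 without it. The motif of YY1, AANATGGC, was in 19.5% of the KRAB promoters and 7.51% of all. The GC box GGGCGG was in 36.8% of the KRAB promoters, 58.6% of those of the genes without the pattern and 49.7% of all. For NRF1 the shares were 6.90% of the KRAB promoters and 1.47% of all, for the ETS motif 9.20% and 5.57%, for the CRE 4.60% and 2.60%, for the E-box CACGTG 11.5% and 9.11%, and for the motif of Kaiso 0% (0 of 87) and 0.721%. A motif is a match of letters, and binding was not measured.

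KRAB proteins act through a shared corepressor, and 23 genes of that machinery were listed and tested. Of these, 5 were higher (21.7%) and 7 were lower (30.4%), beside 18.1% and 15.8% of all genes tested. Trim28, the corepressor that the KRAB domain binds, lay at 421 CPM, 474 CPM and 565 CPM in the controls and at 392 CPM, 407 CPM, 365 CPM and 312 CPM in the tumors labelled WDR11OE. Its groups did not overlap, while its log2 fold change of −0.40 did not pass (adjusted p = 0.0556, edgeR's test). Setdb1, the histone methyltransferase it recruits, lay at −0.04. Atf7ip, the partner that stabilizes Setdb1, lay at 151 CPM, 154 CPM and 182 CPM in the controls and at 71.3 CPM, 71.4 CPM, 102 CPM and 92.7 CPM in the tumors labelled WDR11OE. It fell by 0.94 on the log2 scale (adjusted p = 0.00356, edgeR's test) and by 0.97 with the GC trend removed.

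The other lower genes of the machinery were the histone methyltransferases Ehmt2 and Ehmt1, the DNA methyltransferases Dnmt1 and Dnmt3a, the chromatin remodeler Chd4 and Morc2a, with log2 fold changes from −0.72 to −0.32. The higher ones were Mphosph8 and D14Abb1e, subunits of the HUSH silencing complex, Hdac2, Cbx3 and Smarcad1, between 0.36 and 0.53. After removal of the GC trend, 7 genes of the machinery were lower and 0 were higher, beside 14.3% and 11.1% of all genes tested in that fit.

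Other families of zinc finger genes were counted beside the Zfp genes. Of 29 Zbtb genes 2 were higher and 5 were lower, of 18 Zscan or Zkscan genes 4 were higher and 2 were lower, and of 26 Klf or Sp genes 1 was higher and 7 were lower, beside 18.1% and 15.8% of all genes tested. Their medians were −0.18, 0.20 and −0.06, with median exon GC contents of 50.7%, 50.5% and 50.8%.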

How the data were processed

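The authors mapped the reads to NCBIM37.67 (mm9) with StrongArm, ran HTSeq on a GENCODE annotation and deposited raw counts for 34592 genes. The submitters' processing notes name CASAVA 1.7, STAR, BWA and HTSeq. The labels name an unstranded TruSeq kit, the study's methods name stranded total RNA, and the strand setting of the counting is not given in the sources used here, so reads of overlapping antisense genes cannot be told apart. Antisense exons covered over 10% of the exons of 16 of the 263 Zfp genes.

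In R 4.3.3, the 17389 genes that passed filterByExpr received TMM factors and entered the quasi-likelihood F test of edgeR 4.0.16 (two-sided), with the condition as the only term and Benjamini-Hochberg adjustment. For the 2-fold call, which follows the study, the average log2 CPM had to exceed 0, the absolute log2 fold change had to reach 1 and the adjusted p had to lie below 0.05. The SE is the log2 fold change over the square root of F. The fit was also run on simulated counts drawn independently for each tumor, which cannot show effects of library runs or of related replicates. CPM carry no prior count.

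Alternatives were limma-voom (the study's test), DESeq2, other scalings and filters, loess removal (span 0.3, per tumor) of trends on exon GC content or length, WDR11OE replicates 1 and 2 summed, equal weight per tumor in choosing the genes, and leaving out each tumor. The wider KRAB pattern and the GC removal with summed replicates were added after seeing the data.

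Classes came from each gene's longest translated GENCODE M1 coding sequence, rather than from the RefSeq proteins first planned. A finger was C-x(2,4)-C-x(12)-H-x(3,5)-H and KRAB was L or M, Y, any residue, D, E or N, V, M, any residue, E. The wider pattern added F, S or T, any 2 residues, E, W.

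The Zfp genes and all lists were chosen with earlier results of these data known. Named by rule were Zfp101, the 10 highest and 10 lowest 2-fold calls without overlap between the groups, the 5 most abundant genes, the genes of the 3 role lists, the 3 on either side of the limit of 2000, the 3 with the largest adjusted p, the cluster of Zfp101, and Wdr11 and Myc. Other genes were named after their values were seen. Replicates are numbered in the order of the deposit, as names only.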

Additional observations from a re-analysis of the deposited data

How the results depend on the processing

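More Zfp genes were higher than lower under every alternative listed here but one, the removal of the GC trend with WDR11OE replicates 1 and 2 summed (27 higher, 37 lower). The median log2 fold change of the Zfp genes was 0.21 as reported, with that of all genes tested (0.08) given in brackets. It was 0.17 (0.04) with DESeq2, 0.17 (0.04) with RLE scaling and 0.25 (0.12) with upper quartile scaling. With no filter, where 26417 genes were tested, it was 0.16 (0.14). It was 0.17 (0.05) with WDR11OE replicates 1 and 2 summed, and 0.10 (0.05) with the GC trend removed. In that fit, 3 genes were higher at 2-fold and 57 at any fold, of them 28 KRAB genes and 25 without the KRAB pattern. With replicates 1 and 2 summed, 2 KRAB genes were lower and 29 genes without the pattern were higher. With both steps together, an alternative chosen after seeing the data, the median was 0.087, beside 0.046 over all genes tested. In that fit, 3 genes were higher at 2-fold and 27 at any fold, of them 14 KRAB genes and 9 without the pattern.

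Leaving out one tumor at a time gave 9 to 15 genes higher and 7 to 10 lower at 2-fold, 74 to 106 higher and 42 to 52 lower at any fold, and a median of 0.16 to 0.23. KRAB genes gave 42 to 58 higher and 2 to 3 lower, and genes without the pattern 28 to 44 higher and 38 to 46 lower. Of 16953 to 17839 genes tested, these fits called 1560 to 2986 higher and 2011 to 2868 lower. With all tumors, 3150 and 2744 of 17389 were called. The 74 higher genes, and 28 without the pattern, came without WDR11OE replicate 1, a fit that called 9.12% of all genes tested higher. The fit without WDR11OE replicate 2 gave 29 without the pattern. The 4 lower KRAB genes became 2 without control replicate 2, control replicate 3, or WDR11OE replicate 1, 2 or 3.

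Of 1026 values for 57 named genes under 18 alternatives, 72 lost and 14 gained a pass, 4 changed sign with a pass on one side, and 936 stayed on their side of the threshold. Among the 936, 30 values of 10 genes changed sign without a pass on either side, such as Zfp266, from 0.10 to −0.31 with the GC trend removed, Zfp281, from 0.08 to −0.19, and Zfp711, from 0.01 to −0.47. The log2 fold change of Zfp219 was 0.012 with the GC trend removed and 0.000248 with replicates 1 and 2 also summed, and the log2 fold change of Zfp326 was −0.29 and −0.31. The cause of these changes was not tested. No paired analysis was possible because the replicate numbers only name the tumors in the order of the deposit.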

Other observations

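KRAB zinc finger genes also exist under symbols other than Zfp and digits. Of 31 such genes with the KRAB pattern, C2H2 fingers and a summed count of at least 2000, 25 were higher in the tumors labelled WDR11OE and 0 were lower in edgeR's test, with a median log2 fold change of 0.73. Their median exon GC content was 39.5%. Of all tested genes with that minimum of reads, 22.4% were higher and 21% were lower. Of genes other than the Zfp genes with that minimum and a GC content below 40%, 59.3% were higher. Once the GC trend was removed, 10 of the 31 were higher and 1 was lower, with a median of 0.33. In that fit, 13% of tested genes with that minimum were higher and 19.3% were lower.

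Fingers and length were also set against the differences of the Zfp genes, as descriptions across genes. Spearman's rho between the number of fingers and the log2 fold change was 0.27 over 258 genes and 0.11 within the 101 KRAB genes. For exon length it was −0.27 over the 258 genes and −0.45 with the GC trend removed, beside −0.19 and −0.29 over 17125 genes tested.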
